A study of Mus musculus with 3 samples.

Results

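The genes described here are 8 components of transforming growth factor beta (TGF-beta) signalling, Tgfb1, Tgfbr1, Tgfbr2, Smad2, Smad3, Smad4, Smad7 and Ski, chosen by symbol from 27998 genes in the count tables. All 8 were counted in every library, and all 8 passed the low-count filter of the class comparisons. Single-cell RNA sequencing was run on mouse fetal brain at E18.5, shortly before birth, on cells enriched with magnetic beads against CD11b, a myeloid integrin. The groups were Gzmb-cko with polyIC (genotype Ncr1-cre;gzmbf/f), Ncr1-cre with polyIC and Ncr1-cre with saline, with 1 library each. PolyIC is a synthetic double-stranded RNA used to mimic a viral infection, Gzmb encodes the cytotoxic protease granzyme B, and Ncr1-cre, which every group carried, puts the recombinase under the promoter of a natural killer cell receptor gene. The series describes the groups as groups of pregnant mice. The dose, the day of injection, the number of fetuses per library and whether dam or fetus carried the alleles are not stated in the labels, and no Gzmb-cko library with saline is among the samples. With 1 library per group, treatment and genotype cannot be told apart from the library itself, so ratios between groups carry no test.

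TGF-beta 1, the product of Tgfb1, is secreted in a latent form and must be activated before it binds its receptor. The active ligand binds TGFBR2, which phosphorylates TGFBR1, and TGFBR1 in turn phosphorylates SMAD2 and SMAD3, which enter the nucleus with SMAD4 and change transcription. SMAD7 is induced by the pathway and blocks the receptor, and SKI binds the SMAD complex and represses its targets. In mouse brain, microglia need this pathway to acquire and hold their characteristic gene programme, which includes Tmem119, Sall1 and P2ry12.

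The promoters of Tgfbr1, Tgfbr2 and Ski, which rose together in microglia and border macrophages over monocytes, and of Tgfb1, which fell in the same contrasts, are printed from RefSeq on GRCm38.p6, from 250 bases before to 50 bases after the start of the gene, on the strand of the gene. Capitals mark matches on either strand to GGGCGG, the core of a Sp1 site, or to CCAAT, the core of an NF-Y site. The motif GAGGAAGT, a PU.1 site, and the SMAD palindrome GTCTAGAC were also searched on both strands. None of the searched motifs overlap in these 4 windows.
Tgfbr1, chr4:47352972-47353271, plus strand: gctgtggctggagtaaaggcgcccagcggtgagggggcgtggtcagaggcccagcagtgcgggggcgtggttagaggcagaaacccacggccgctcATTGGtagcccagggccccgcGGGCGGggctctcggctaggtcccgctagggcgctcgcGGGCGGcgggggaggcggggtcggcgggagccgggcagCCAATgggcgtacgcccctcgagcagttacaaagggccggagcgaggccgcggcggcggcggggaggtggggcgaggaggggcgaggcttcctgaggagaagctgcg
Tgfbr2, chr9:116175314-116175613, minus strand: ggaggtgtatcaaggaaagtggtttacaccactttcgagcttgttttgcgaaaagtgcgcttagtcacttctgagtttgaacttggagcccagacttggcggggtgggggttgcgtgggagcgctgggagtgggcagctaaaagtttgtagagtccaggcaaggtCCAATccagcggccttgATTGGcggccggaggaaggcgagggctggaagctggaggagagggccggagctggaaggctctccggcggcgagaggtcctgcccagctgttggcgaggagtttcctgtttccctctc
Ski, chr4:155222486-155222785, minus strand: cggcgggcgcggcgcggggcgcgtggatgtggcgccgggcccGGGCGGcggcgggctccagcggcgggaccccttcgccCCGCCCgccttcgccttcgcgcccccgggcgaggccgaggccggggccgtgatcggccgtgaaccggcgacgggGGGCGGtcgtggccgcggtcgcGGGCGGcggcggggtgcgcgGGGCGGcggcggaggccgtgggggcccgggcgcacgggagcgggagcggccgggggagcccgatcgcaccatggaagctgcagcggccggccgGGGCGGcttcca
Tgfb1, chr7:25686752-25687051, plus strand: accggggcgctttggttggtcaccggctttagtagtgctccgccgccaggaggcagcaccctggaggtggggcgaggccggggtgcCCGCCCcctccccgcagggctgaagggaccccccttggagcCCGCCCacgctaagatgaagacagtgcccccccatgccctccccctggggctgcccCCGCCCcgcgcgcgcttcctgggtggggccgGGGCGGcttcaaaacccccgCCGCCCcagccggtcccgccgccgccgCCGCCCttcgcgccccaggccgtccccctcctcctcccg

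The Tgfbr1 window held 2 matches to GGGCGG and 2 to CCAAT, and the Tgfbr2 window held 0 and 2. The Ski window and the Tgfb1 window each held 6 matches to GGGCGG and 0 to CCAAT. Of 32851 promoter windows of the same length, 35.7% held GGGCGG, 37.4% CCAAT, 3.20% GAGGAAGT and 0.213% GTCTAGAC. The Tgfbr2 window stood apart in base composition, with 59.0% G and C against 74.7% for Tgfbr1, 77.0% for Tgfb1 and 85.3% for Ski, while the median over all windows was 52.7%. No match to GAGGAAGT or GTCTAGAC was in these windows, which says only that these letters are not there. A second Tgfbr1 window, chr4:47385966-47386265, is not printed. It held 0 matches to GGGCGG and 1 to CCAAT, with 52.0% G and C.

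The libraries held 15306 (Gzmb-cko polyIC), 14887 (Ncr1-cre polyIC) and 13820 (Ncr1-cre saline) cell barcodes and 105574073, 85442198 and 89295907 unique molecular identifiers (UMIs, each a counted RNA molecule). Barcodes reached down to 500 UMIs in both polyIC libraries and to 3133 UMIs in the saline library, and pairs of libraries shared 63 to 71 barcodes. A floor of 500 genes and a ceiling of 10% mitochondrial UMIs left 36354 of 44013 cells. Each cell was then classed by a few genes, none of them a component described here. Microglia had P2ry12 and no Mrc1, border macrophages Mrc1 and Pf4, monocytes Ccr2 and Ly6c2, and neural cells Sox2 or Stmn2. Cells that met exactly 1 rule were used, 14211 microglia, 3367 border macrophages, 1193 monocytes and 1758 neural cells.

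Gzmb, the targeted gene, had 2 UMIs in 1 kept cell of the Gzmb-cko polyIC library, 127 UMIs in 6 cells of the Ncr1-cre polyIC library and 61 UMIs in 4 cells of the Ncr1-cre saline library. A Ncr1 UMI was in 0, 3 and 3 kept cells, so the check of the targeted gene rests on few cells. The labels of the classes were checked against summed marker levels in CPM (the UMIs of a gene scaled to a common total per class and library). Microglial markers summed to 11329 to 14718 CPM in microglia. They also summed to 7804 to 8682 CPM in the Mrc1 and Pf4 cells, where border macrophage markers summed to 5042 to 8877 CPM, so these cells carried both programmes or RNA of both. In monocytes the monocyte markers summed to 7309 to 10439 CPM and microglial markers to 1098 to 2503 CPM. The neural class held 1902 to 3159 CPM of neural markers beside 2452 to 5300 CPM of microglial and 38523 to 109585 CPM of choroid plexus markers, and is called here by its rule. Erythroid cells were chosen by erythroid genes among cells that met none of the 4 rules. They should lack the macrophage receptor gene Csf1r but carried it at 26.1 to 37.4% of its microglial level. Their median depth was 16241, 15491 and 10227 UMIs (Gzmb-cko polyIC, Ncr1-cre polyIC and Ncr1-cre saline), against 5714, 5083 and 4715 UMIs in microglia. Erythroid markers summed to 553545 to 624623 CPM in them. Free RNA and doublets were not separated in these cells. Their levels are called background below as a comparison only, and were not tested as a measure of free RNA.

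Tgfb1, the ligand, was highest in monocytes. Its level was 271 CPM (Gzmb-cko polyIC), 266 CPM (Ncr1-cre polyIC) and 252 CPM (Ncr1-cre saline) in monocytes, against 187, 192 and 168 CPM in microglia of the same libraries. The 2 classes did not overlap in any library. Border macrophages had 197, 189 and 187 CPM, within the range of microglia or just above it. In edgeR's quasi-likelihood test on UMIs summed per class and library, with the library as a block and Benjamini-Hochberg adjustment over 12997 genes, Tgfb1 fell in microglia over monocytes (log2 fold change -0.76 ± 0.26 SE, adjusted p = 0.0286). The call was lost without the Gzmb-cko polyIC library (adjusted p = 0.0920), without the saline library (0.148) and with library totals in place of TMM scaling (0.0877). Microglia and border macrophages were not called apart for Tgfb1 (-0.06 ± 0.25, adjusted p = 0.933).

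Tgfbr1, the signalling receptor, had the opposite order. Microglia had 319, 395 and 293 CPM in the Gzmb-cko polyIC, Ncr1-cre polyIC and Ncr1-cre saline libraries, and monocytes had 92.0, 64.6 and 98.0 CPM. Border macrophages lay between them in every library, at 187, 232 and 188 CPM. Tgfbr1 rose 3.40-fold in microglia over monocytes (log2 fold change 1.77 ± 0.24 SE, adjusted p = 0.000124, higher in 3 of 3 libraries) and 2.05-fold in border macrophages over monocytes (1.03 ± 0.24, adjusted p = 0.00450). In microglia over border macrophages it was higher in 3 of 3 libraries but missed the threshold (0.73 ± 0.22, adjusted p = 0.0735). That contrast passed in 6 of 13 alternatives, among them DESeq2 (adjusted p = 0.0159) and the fit without the Ncr1-cre polyIC library (0.000411).

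Tgfbr2, the receptor that binds the ligand first, did not separate the macrophage classes. Microglia had 125, 132 and 103 CPM in the Gzmb-cko polyIC, Ncr1-cre polyIC and Ncr1-cre saline libraries, border macrophages 122, 129 and 95.8 CPM and monocytes 50.6, 36.3 and 42.2 CPM. Both macrophage classes were above monocytes in every library, and within each library microglia and border macrophages differed far less than the libraries did. The gene rose in microglia over monocytes (log2 fold change 1.26 ± 0.23 SE, adjusted p = 0.000881) and in border macrophages over monocytes (1.20 ± 0.23, adjusted p = 0.00150), with no call between microglia and border macrophages (0.06 ± 0.20, adjusted p = 0.913). Erythroid cells had 104, 90.2 and 95.2 CPM of Tgfbr1 and 54.0, 44.1 and 35.7 CPM of Tgfbr2, so the monocyte levels of both receptors were at about the level of cells taken as background. The monocyte values are therefore not read as expression in monocytes, and whether they are background was not tested. The folds above are read with that limit.

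**Figure D1:**
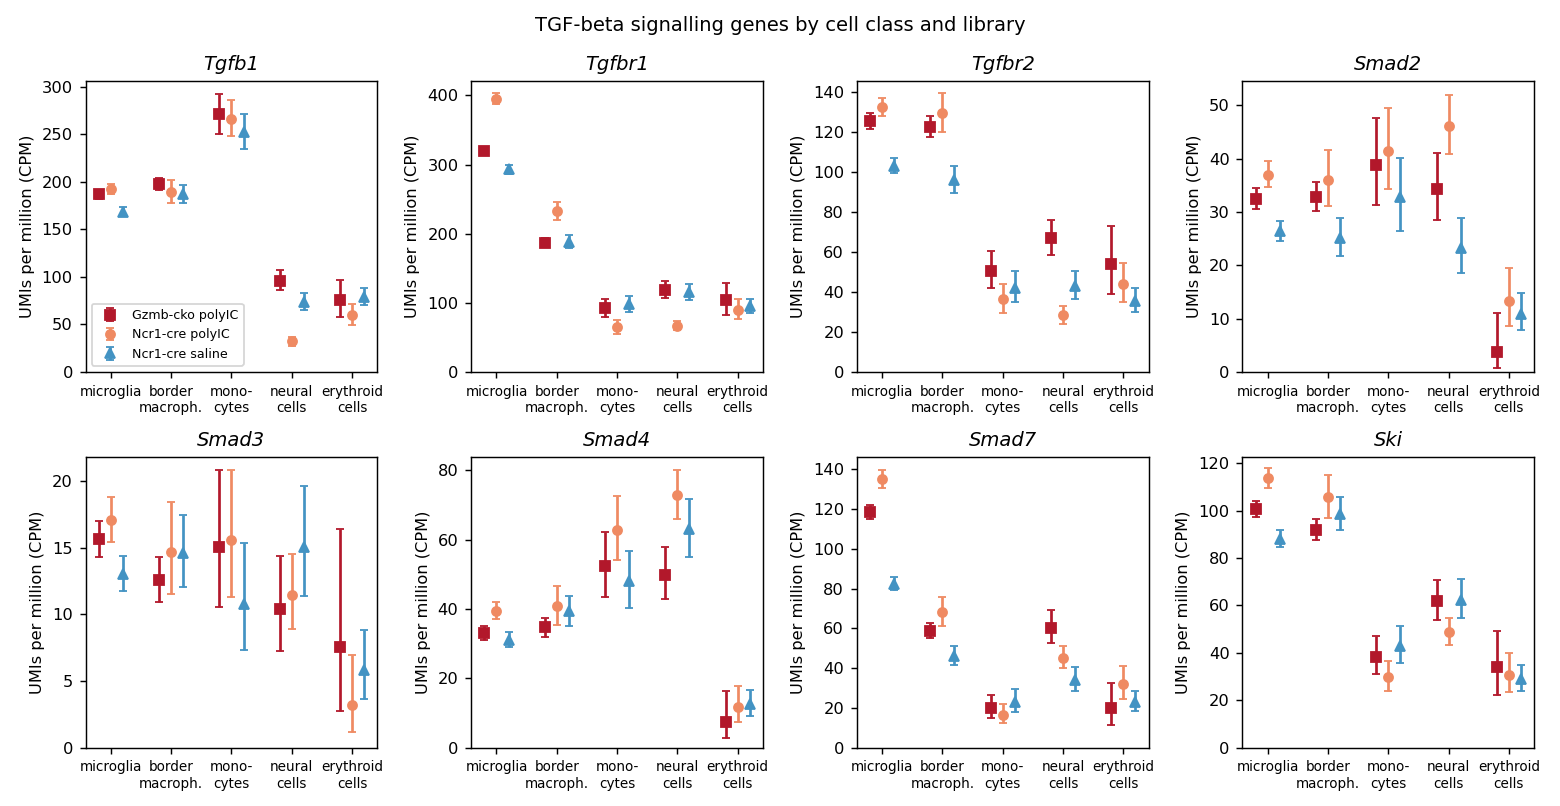
Levels of the 8 genes in CPM (y axis) in 4 classes and in erythroid cells (x axis), with 1 point per library and bars for the 95% Poisson counting interval. Tgfbr1 and Smad7 are highest in microglia and Tgfb1 in monocytes, and Smad2, Smad3 and Smad4 vary less between the classes.

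The receptor-activated SMADs were low and differed little between classes. Smad2 had 32.5, 37.0 and 26.4 CPM in microglia and 32.8, 36.1 and 25.1 CPM in border macrophages of the Gzmb-cko polyIC, Ncr1-cre polyIC and Ncr1-cre saline libraries, and 38.9, 41.4 and 32.8 CPM in monocytes. The monocyte value was above both macrophage values in each library, though the ranges over libraries overlapped. Smad2 fell in microglia over monocytes (log2 fold change -0.47 ± 0.10 SE, adjusted p = 0.00298), a call lost without the Gzmb-cko polyIC library (0.0604) and with library totals (0.0905). Smad3 was counted at 15.6, 17.1 and 13 CPM in microglia and 15.0, 15.5 and 10.8 CPM in monocytes, and passed in neither contrast with monocytes (microglia over monocytes, -0.09 ± 0.19, adjusted p = 0.733, with a higher CPM in microglia in 3 of 3 libraries).

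Smad4, the partner shared by all receptor-activated SMADs, was higher in monocytes than in both macrophage classes. It had 33.0, 39.5 and 31.1 CPM in microglia (Gzmb-cko polyIC, Ncr1-cre polyIC and Ncr1-cre saline), 34.7, 40.8 and 39.3 CPM in border macrophages and 52.3, 62.9 and 48.1 CPM in monocytes. The monocyte range lay above both others. The gene fell in microglia over monocytes (log2 fold change -0.89 ± 0.10 SE, adjusted p = 3.96e-05) and in border macrophages over monocytes (-0.73 ± 0.11, adjusted p = 0.000232), and both calls held in all 13 alternatives. Erythroid cells had 7.53, 11.7 and 12.5 CPM.

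Smad7, the inhibitory SMAD, had the largest fold changes of the 8 genes between the myeloid classes. Microglia had 118, 135 and 82.4 CPM in the Gzmb-cko polyIC, Ncr1-cre polyIC and Ncr1-cre saline libraries, border macrophages 58.8, 68.2 and 46.2 CPM and monocytes 20.1, 16.6 and 23.0 CPM. The 3 classes did not overlap over the libraries. Smad7 rose in microglia over border macrophages (log2 fold change 0.95 ± 0.16 SE, adjusted p = 0.00404), in microglia over monocytes (2.22 ± 0.20, adjusted p = 6.79e-06) and in border macrophages over monocytes (1.27 ± 0.21, adjusted p = 0.000527). Without the Gzmb-cko polyIC library the first of these was 0.94 with an adjusted p of 0.0903, and the other two calls held in all 13 alternatives. The erythroid level was 20.1, 31.8 and 22.9 CPM, so Smad7 in monocytes was about at or under the level of erythroid cells. Whether the monocyte level is background was not tested.

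Ski, the nuclear repressor, resembled Tgfbr2 in its order. It had 101, 114 and 88.1 CPM in microglia, 91.9, 106 and 98.5 CPM in border macrophages and 38.5, 29.7 and 42.9 CPM in monocytes of the Gzmb-cko polyIC, Ncr1-cre polyIC and Ncr1-cre saline libraries. Microglia and border macrophages overlapped, and both stood above monocytes, whose level was near the 33.9, 30.8 and 29.0 CPM of erythroid cells. The gene rose in microglia over monocytes (log2 fold change 1.22 ± 0.16 SE, adjusted p = 0.000123) and in border macrophages over monocytes (1.18 ± 0.17, adjusted p = 0.000201), with 0.03 ± 0.14 and an adjusted p of 0.937 between the macrophage classes.

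Counted over the contrasts, 1 of the 8 genes was called in microglia over border macrophages, where 8.35% of all genes were called. In microglia over monocytes 7 were called, 4 higher and 3 lower, with 49.7% of all genes called, and in border macrophages over monocytes the same 7 genes were called with the same signs, with 45.5% of all genes called. Between border macrophages and monocytes, Tgfb1 (-0.70 ± 0.26, adjusted p = 0.0456) lost its call in 5 of 13 alternatives and Smad2 (-0.50 ± 0.11, 0.00308) in 2, among them leaving out the Gzmb-cko polyIC library for both (0.116 and 0.0509). The contrasts share samples, so these counts are not independent. The median log2 fold change of the 8 genes was 0.05, 0.56 and 0.41 in these contrasts, beside 0.01, 0.12 and 0.11 over all genes tested. Library totals in place of TMM moved the median of all genes by 0.23 in both contrasts with monocytes and by 0.00075 between the macrophage classes.

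**Figure D2:**
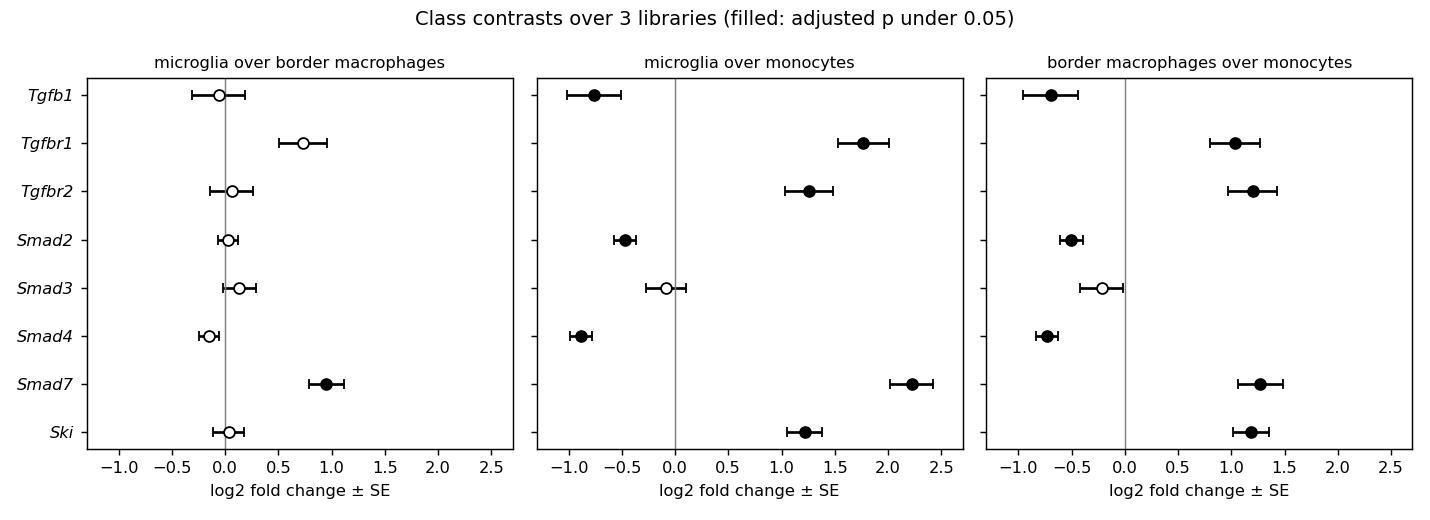
Log2 fold change of each gene between 2 classes (x axis) with its standard error, from 3 libraries per class, with filled points for an adjusted p under 0.05. Only Smad7 is filled in microglia over border macrophages, and Tgfb1, Smad2 and Smad4 lie on the opposite side from the receptors, Smad7 and Ski in both contrasts with monocytes.

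The contrasts with the neural class are read beside the myeloid RNA in its cells. In microglia over neural cells 6 of the 8 genes were called higher and 1 lower, where 68.1% of all genes were called. In border macrophages over neural cells 5 were called higher and 1 lower (67.0% of all genes called, and Smad7, at 0.54 ± 0.18 and an adjusted p of 0.0192, lost in 5 of 13 alternatives), and in monocytes over neural cells 4 higher and 1 lower (69.5% of all genes called). In neural cells Tgfb1 had 95.8 CPM (Gzmb-cko polyIC), 32.1 CPM (Ncr1-cre polyIC) and 73.9 CPM (Ncr1-cre saline), which is 51.3, 16.7 and 44.0% of its microglial level. Csf1r stood at 38.8, 14.2 and 36.6% of its microglial level in the same cells, lowest in the same library.

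The comparison was therefore repeated, after these values were seen, on the neural cells with no UMI of Ptprc, Csf1r or Cx3cr1, 239, 466 and 119 cells in the 3 libraries. In them Tgfb1 was 8.08, 3.47 and 8.07 CPM (Gzmb-cko polyIC, Ncr1-cre polyIC and Ncr1-cre saline) and Tgfbr2 5.05, 3.12 and 6.46 CPM, each from 10 UMIs or fewer per library. Both genes were thus low once cells with myeloid RNA were left out. Tgfbr1 was 20.2, 26.4 and 37.1 CPM and Smad7 20.2, 34.0 and 16.1 CPM in these cells. Smad4 behaved differently: it was 61.6, 81.2 and 79.1 CPM, against 49.9, 72.8 and 63.0 CPM in all neural cells, and remained above the 33.0, 39.5 and 31.1 CPM of microglia in each library. Smad4 fell in microglia over neural cells (log2 fold change -0.62 ± 0.10 SE, adjusted p = 0.000178), and the call held in all 13 alternatives.

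The remaining components of the restricted neural cells were Smad2 at 32.3, 52.1 and 16.1 CPM, Ski at 30.3, 39.6 and 67.8 CPM and Smad3 at 4.04, 6.59 and 4.84 CPM (Gzmb-cko polyIC, Ncr1-cre polyIC and Ncr1-cre saline). Smad2 was lowest in the saline library and Ski highest there. Tested against all neural cells, Smad2 was not called in microglia (0.12 ± 0.10, adjusted p = 0.330) and changed sign in 5 of 13 alternatives. Smad3 was called higher (0.54 ± 0.18, adjusted p = 0.0176), but 5 of 13 alternatives ended the call, among them leaving out the Gzmb-cko polyIC library (adjusted p = 0.188) or the Ncr1-cre polyIC library (0.175).

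In monocytes over neural cells the sign itself depended on scaling. Library totals in place of TMM moved the median of all genes by 0.46 on the log2 scale, more than in any of the other class contrasts. Tgfb1 rose (2.48 ± 0.28, adjusted p = 1.52e-05), also with library totals. Smad2 (0.59 ± 0.11, adjusted p = 0.000768), Smad3 (0.63 ± 0.22, 0.0237) and Smad4 (0.27 ± 0.11, 0.0432) were called higher with TMM and not with library totals, where Smad4 was -0.19. In CPM, Smad4 was higher in monocytes in 1 of 3 libraries. Smad7 was called lower (-0.74 ± 0.22, 0.0107), and was 0.07 against the restricted neural cells.

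**Figure D3:**
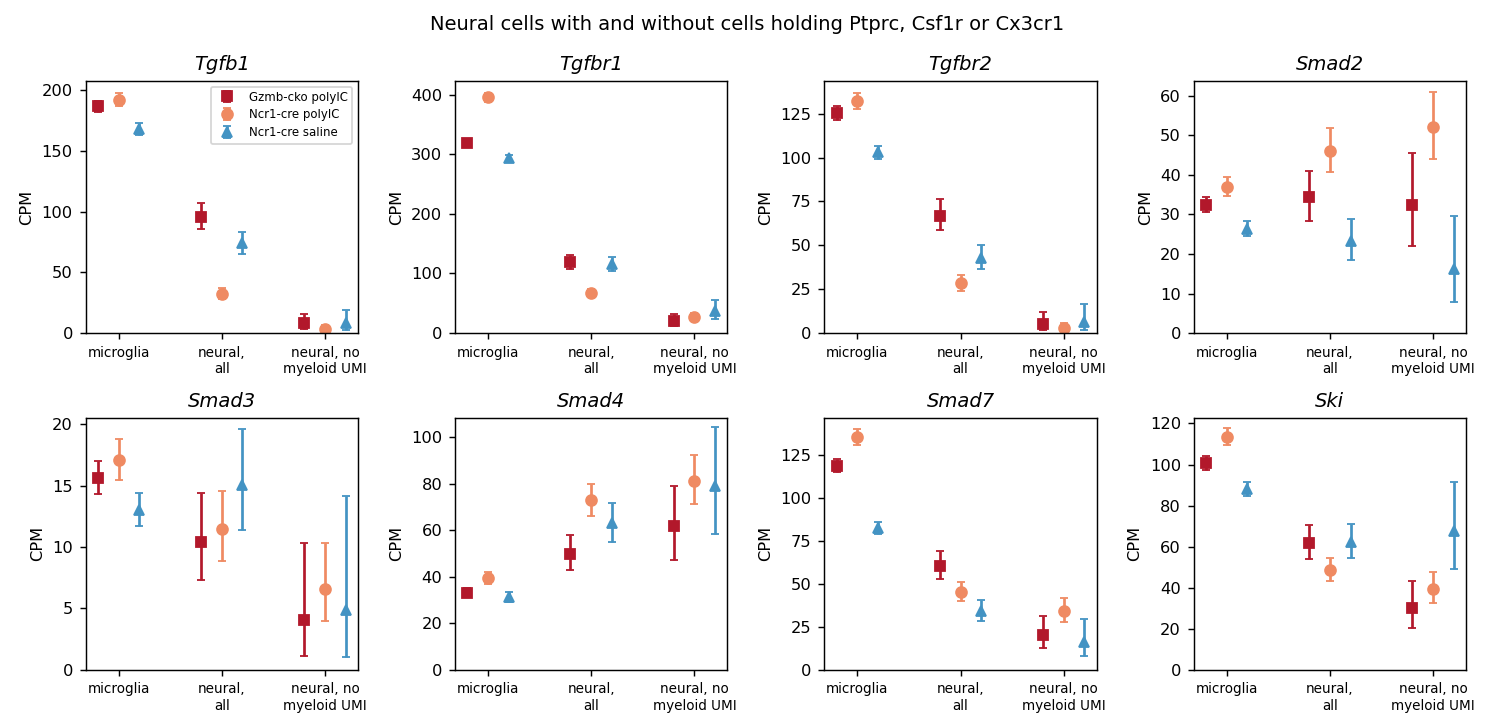
Levels in CPM (y axis) of the 8 genes in microglia, in all neural cells and in neural cells with no Ptprc, Csf1r or Cx3cr1 UMI (x axis), with 1 point per library and 95% Poisson counting intervals. Tgfb1 and Tgfbr2 fall to under 10 CPM in the restricted cells of each library, while Smad4 stays above its microglial level.

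Within microglia, 5 of the 8 genes fell in cycling over non-cycling cells and 0 rose, where 45.2% of all genes were called. Cycling cells were those with at least 2 of 10 cell-cycle genes detected (1844, 1257 and 1940 cells) and non-cycling cells those with none (1847, 1846 and 1871). Smad7 had 99.8, 113 and 68.3 CPM in cycling cells, against 142, 157 and 103 CPM in non-cycling cells of the Gzmb-cko polyIC, Ncr1-cre polyIC and Ncr1-cre saline libraries. Cycling cells were lower in each library, although the ranges over libraries overlapped. The log2 fold change was -0.52 ± 0.04 SE (adjusted p = 7.76e-09).

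Smad3 (-0.37 ± 0.09, adjusted p = 0.00336), Tgfbr2 (-0.35 ± 0.05, 5.67e-06), Tgfbr1 (-0.20 ± 0.04, 0.000257) and Tgfb1 (-0.18 ± 0.04, 0.00100) also fell, each in 3 of 3 libraries. Smad2, Smad4 and Ski were not called, with log2 fold changes of -0.08, -0.10 and -0.06. The median of the 8 genes was -0.19, against -0.02 over all genes tested. Median depth also differed, at 7052, 6492 and 5664 UMIs in cycling and 4875, 4333 and 4128 UMIs in non-cycling cells, and its part in the result was not tested. Without the library block only Tgfbr2 of the 8 was called (adjusted p = 0.0400), and DESeq2 ended the call of Smad3 (adjusted p = 0.0826).

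**Figure D4:**
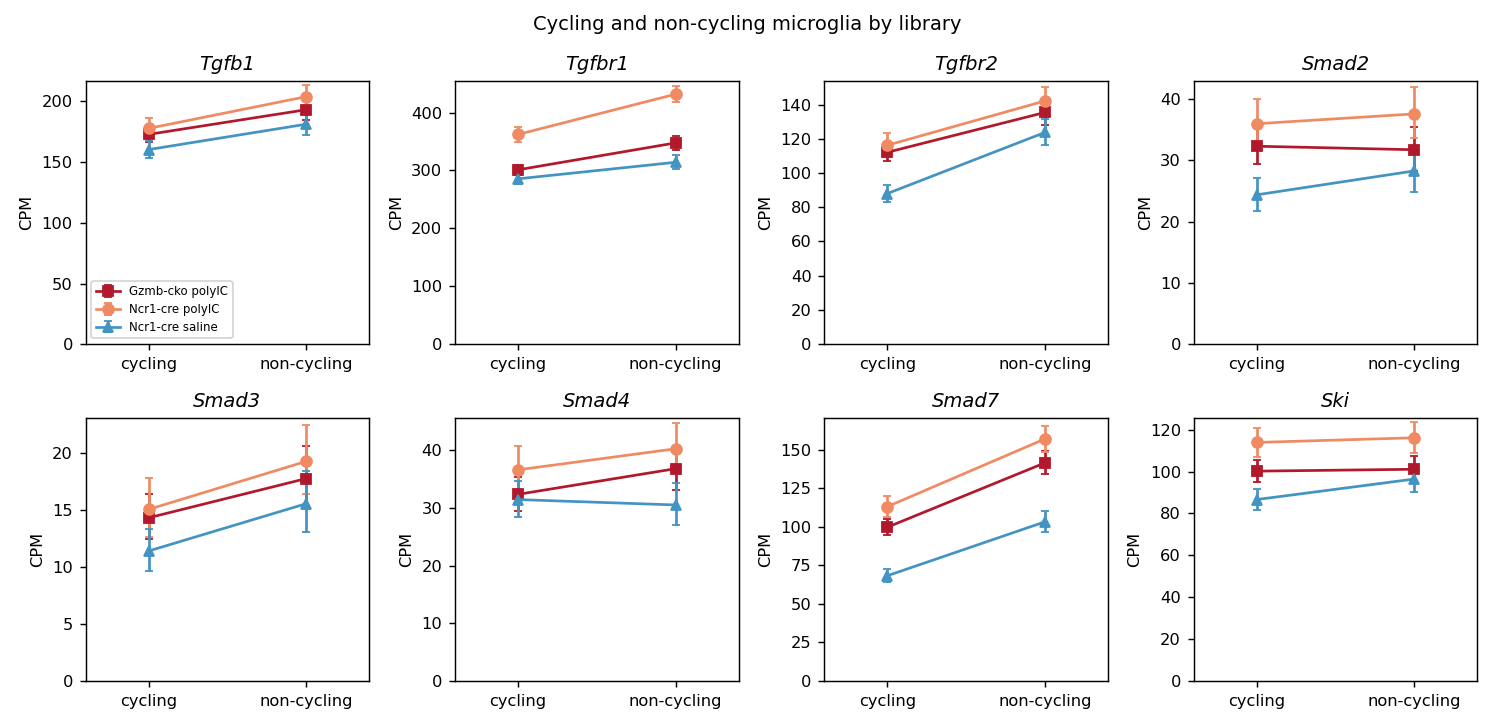
Levels in CPM (y axis) in cycling and non-cycling microglia (x axis), with lines joining the 2 values of a library and 95% Poisson counting intervals. The lines of Smad7, Smad3, Tgfbr2, Tgfbr1 and Tgfb1 run higher in non-cycling cells in each library, and the Ncr1-cre saline line is the lowest for Smad7.

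Between groups, all 8 genes were higher in microglia of the Ncr1-cre polyIC library than in those of the Ncr1-cre saline library. Of all genes with a mean of at least 10 CPM, 76.0% were higher too. Smad7 was the only one past 1.5-fold, the size taken as a difference here for genes with a mean of at least 10 CPM, while 5.69% of all genes were past it. At 135 CPM with polyIC against 82.4 CPM with saline, its ratio was 1.64 (95% counting interval 1.55 to 1.73). It was 1.49 with TMM scaling, 1.46 with the mean of per-cell CPM and 1.5 with a total that omitted mitochondrial, ribosomal protein and hemoglobin genes. Erythroid markers, most of them hemoglobin genes, summed to 25534 CPM (Gzmb-cko polyIC), 55930 CPM (Ncr1-cre polyIC) and 98267 CPM (Ncr1-cre saline) in microglia, and their part in the ratio beyond that last total was not tested.

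Smad2 had a ratio of 1.40 (1.27 to 1.54), Tgfbr1 1.35 (1.31 to 1.39), Smad3 1.31 (1.14 to 1.51), Ski 1.29 (1.22 to 1.36), Tgfbr2 1.28 (1.22 to 1.35), Smad4 1.27 and Tgfb1 1.14. All 8 stayed above 1 in each of 9 alternatives. The median log2 ratio of the 8 genes was 0.38, against 0.17 over all genes, and with TMM scaling 0.24 against 0.03. The intervals cover counting error only.

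Within cycling microglia the Smad7 ratio of Ncr1-cre polyIC over Ncr1-cre saline was 1.66 (1.51 to 1.81), and within non-cycling microglia it was 1.52 (1.40 to 1.66). Tgfbr1 had ratios of 1.27 and 1.37 in the same strata. The difference between the libraries was thus present at both ends of the cycling measure.

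In Gzmb-cko polyIC over Ncr1-cre polyIC microglia, 0 of the 8 genes were past 1.5-fold (2.02% of all genes were), and none was higher. Of all genes with a mean of at least 10 CPM, 43.5% were higher. Tgfbr1 was 1.24-fold lower (1.20 to 1.27), Smad4 1.20-fold (1.10 to 1.31), Smad7 and Smad2 1.14-fold, Ski 1.13-fold, Smad3 1.09-fold, Tgfbr2 1.05-fold and Tgfb1 1.03-fold. With TMM scaling Tgfb1 turned to a ratio of 1.01 and the others stayed under 1. The median log2 ratio was -0.18, against -0.03 over all genes, and -0.12 against 0.03 with TMM. Of the same 8 genes, 0 were past 1.5-fold in Gzmb-cko polyIC over Ncr1-cre saline (2.94% of all genes), and Smad7 had the highest ratio at 1.44 (1.37 to 1.51). These comparisons share libraries: Smad7 in microglia was 118 CPM in Gzmb-cko polyIC, 135 CPM in Ncr1-cre polyIC and 82.4 CPM in Ncr1-cre saline.

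Border macrophages showed ratios of a like size for some genes. In Ncr1-cre polyIC over Ncr1-cre saline none of the 8 was past 1.5-fold (9.87% of all genes were). Smad7 had a ratio of 1.48 (1.27 to 1.71), Smad2 1.44 (1.17 to 1.76), Tgfbr2 1.35 (1.21 to 1.5) and Tgfbr1 1.24 (1.14 to 1.33). Tgfb1, Smad3, Smad4 and Ski were within 1.01 to 1.07 and turned below 1 with TMM. None was past 1.5-fold in Gzmb-cko polyIC over Ncr1-cre polyIC either (3.44% of all genes), and Tgfbr1 was 1.24-fold lower (1.16 to 1.33), the same size as in microglia. Nor was any in Gzmb-cko polyIC over Ncr1-cre saline (3.74% of all genes), with Smad2 at 1.30, Tgfbr2 at 1.28 and Smad7 at 1.27.

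**Figure D5:**
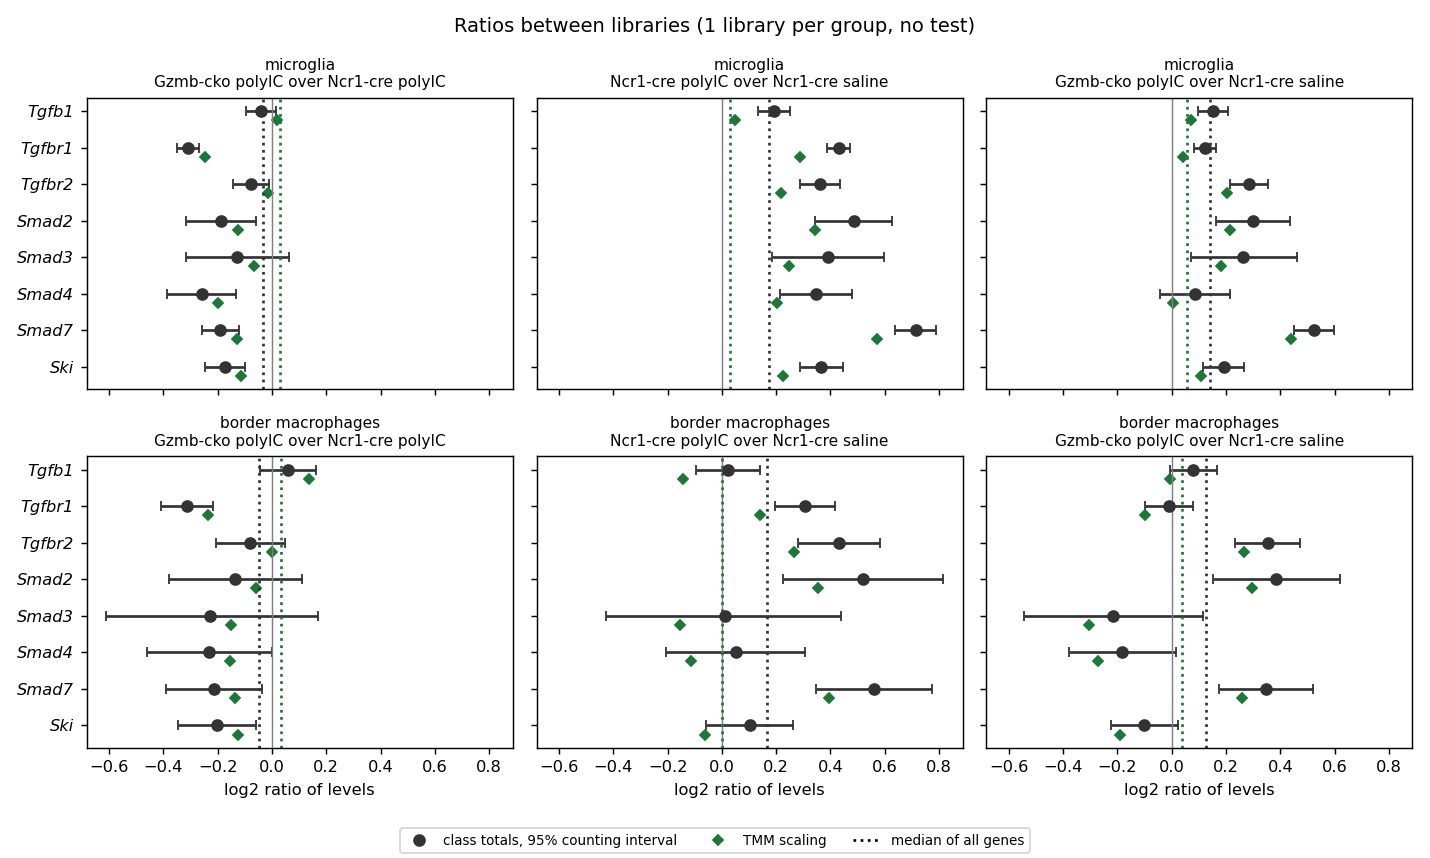
Log2 ratio of the level of each gene between 2 libraries (x axis) in microglia and border macrophages, with circles for class totals and their 95% counting interval, diamonds for TMM scaling and dotted lines for the median of all genes in each scaling. All 8 circles and diamonds lie above 0 in microglia for Ncr1-cre polyIC over Ncr1-cre saline, with Smad7 farthest right.

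In monocytes 1 of the 8 genes was past 1.5-fold in Ncr1-cre polyIC over Ncr1-cre saline, where 15.7% of all genes were. Tgfbr1 was 1.52-fold lower (1.26 to 1.84), at 64.6 CPM against 98.0 CPM. Microglial markers summed to 1098 CPM against 2503 CPM in the same monocytes, and of 18 microglial genes that need TGF-beta in mouse 16 were past 1.5-fold lower. Erythroid cells had 90.2 CPM of Tgfbr1 with polyIC and 95.2 CPM with saline, so the monocyte level was under or about the erythroid level in both libraries. The ratio is not read as a difference in expression, and whether it is one was not tested. With the mean of per-cell CPM the Tgfbr1 ratio was 0.829. None of the 8 was past 1.5-fold in Gzmb-cko polyIC over Ncr1-cre polyIC (7.86% of all genes) or in Gzmb-cko polyIC over Ncr1-cre saline (10.1%).

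In neural cells 3 of the 8 genes were past 1.5-fold in Gzmb-cko polyIC over Ncr1-cre polyIC, where 27.2% of all genes were. Tgfb1 was higher at a ratio of 2.98 (2.49 to 3.59), Tgfbr2 at 2.36 (1.93 to 2.90) and Tgfbr1 at 1.78 (1.54 to 2.04). Microglial markers summed to 5300 CPM in the Gzmb-cko polyIC library and 2452 CPM in the Ncr1-cre polyIC library, and 17 of the 18 microglial genes were past 1.5-fold higher. In the restricted neural cells Tgfb1 was 8.08 CPM against 3.47 CPM and Tgfbr2 5.05 CPM against 3.12 CPM, both in the same direction on 10 UMIs or fewer per library, while the Tgfbr1 ratio was 0.766.

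In Ncr1-cre polyIC over Ncr1-cre saline 4 of the 8 genes were past 1.5-fold in neural cells (26.5% of all genes), with Tgfb1 2.30-fold, Tgfbr1 1.72-fold and Tgfbr2 1.52-fold lower and Smad2 higher at 1.98 (1.55 to 2.56). All 4 differed the same way in CPM in the restricted neural cells, but only the counting intervals of Smad2 were apart. Smad2 was 52.1 CPM (44.1 to 61.1, 150 UMIs) against 16.1 CPM (7.74 to 29.7), the latter from 10 UMIs. In the same cells Stmn2 was 801 CPM against 573 CPM and Sox2 349 CPM against 383 CPM. Whether the make-up of these cells has a part in the Smad2 ratio was not tested. The intervals overlapped for Tgfbr1, at 26.4 CPM (20.8 to 33.0) against 37.1 CPM (23.5 to 55.7). They also overlapped for Tgfb1, at 3.47 CPM (10 UMIs) against 8.07 CPM (5 UMIs), and for Tgfbr2, at 3.12 CPM (9 UMIs) against 6.46 CPM (4 UMIs). Against Ncr1-cre saline, 2 were past it in Gzmb-cko polyIC neural cells (16.4% of all genes), Smad7 at 1.76 (1.41 to 2.22) and Tgfbr2 at 1.56 (1.27 to 1.92). In the restricted cells Smad7 was 20.2 CPM against 16.1 CPM and Tgfbr2 5.05 CPM against 6.46 CPM, with overlapping intervals for both.

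Shares of cells with a UMI were compared at 1 fixed depth, since depth differed between classes and libraries. Of microglia, 75.7% (Gzmb-cko polyIC), 74.7% (Ncr1-cre polyIC) and 72.8% (Ncr1-cre saline) held a Tgfbr1 UMI, and 58.8, 65.4 and 57.3% after each cell was thinned to 3000 UMIs. Thinning left out 421, 730 and 0 shallower microglia. Thinned shares in erythroid cells were 26.1, 17.9 and 21.7%, and in monocytes 19.8, 13 and 20.4%. The monocyte shares were thus not above the erythroid ones, and whether either is free RNA was not tested. Median depth was 5714, 5083 and 4715 UMIs in microglia and 16241, 15491 and 10227 UMIs in erythroid cells.

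For Smad7 the thinned share was 29.8, 33.8 and 22.6% in microglia, against 16.2, 19.2 and 12.1% in border macrophages and 0, 6.84 and 4.15% in erythroid cells (Gzmb-cko polyIC, Ncr1-cre polyIC and Ncr1-cre saline). The 95% Clopper-Pearson interval of the erythroid 0, over 46 cells, reached 7.71%. Both receptor genes were detected in 40.0, 38.8 and 32.2% of microglia and in 32.6, 24.8 and 23.3% of the deeper erythroid cells, unthinned.

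Other genes of the pathway were taken from 6 lists of 95 genes. Of the microglial genes that need TGF-beta in mouse, without P2ry12 and Tgfbr1, which are a class gene and one of the 8, 18 of 18 rose in microglia over monocytes and 3 of 18 in microglia over border macrophages, with 0 lower in both, beside 49.7% and 8.35% of all genes called in either direction. The 3 were Sparc (log2 fold change 1.43 ± 0.24 SE, adjusted p = 0.00328), which encodes a matrix-binding glycoprotein, Sall1 (1.04 ± 0.20, 0.00924), a transcription factor that holds microglial identity, and the sugar transporter gene Slc2a5 (1.0 ± 0.25, 0.0352). In cycling over non-cycling microglia 18 of 18 fell, beside 45.2% of all genes called. Microglia were chosen by P2ry12, which is related to this list, and the rules of monocytes and border macrophages did not ask for it. The counts over monocytes and over border macrophages are therefore checks of the classes.

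A list of 18 genes held inhibitors and other regulators of the pathway and is called the inhibitor list. Of these, 5 rose and 5 fell in microglia over monocytes, a share near the 49.7% of all genes called. Pmepa1, whose product takes SMADs from the receptor, averaged 240 CPM in microglia and 29.9 CPM in monocytes (log2 fold change 2.82 ± 0.29 SE, adjusted p = 1.52e-05), and Ldlrad4, from the same family, rose too (2.21 ± 0.30, 0.000116). In microglia over border macrophages 2 rose and 2 fell, beside 8.35% of all genes called, with the ubiquitin ligase gene Wwp1 at 34.8 CPM in microglia and 129 CPM in border macrophages (-1.88 ± 0.12, adjusted p = 6.81e-06).

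Of 12 general targets tested, 3 rose and 7 fell in microglia over monocytes, where 49.7% of all genes were called. Pmepa1, named above from the inhibitor list, is also in this list and was among those that rose. Tgfbi, a TGF-beta induced matrix protein gene, averaged 20.2 CPM in microglia and 196 CPM in monocytes (-3.51 ± 0.19, adjusted p = 2.25e-07), and Id1, a transcriptional inhibitor that BMP signalling also induces, 10.0 CPM and 67.4 CPM (-2.99 ± 0.18, 4.12e-07). Of 19 genes for ligands and their activation, 5 rose and 4 fell in the same contrast, a share near that of all genes. Thbs1, whose product activates latent TGF-beta, averaged 20.8 CPM in microglia and 682 CPM in monocytes (-5.27 ± 0.26, adjusted p = 1.40e-07).

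Of 9 further receptors tested, 5 rose and 2 fell in microglia over monocytes (49.7% of all genes called), led by Bmpr1a, a receptor for bone morphogenetic proteins (2.46 ± 0.27, adjusted p = 2.60e-05), and by the co-receptor gene Eng (1.45 ± 0.28, 0.00138). Of 11 further SMADs and adaptors 1 rose, Smad5 (0.94 ± 0.11, 3.21e-05), and 6 fell. Zfyve9, which encodes the anchor that brings SMAD2 and SMAD3 to the receptor, averaged 9.45 CPM in microglia and 64.1 CPM in monocytes (-2.98 ± 0.11, adjusted p = 2.89e-08). In microglia over border macrophages 1 receptor fell, Bmpr2 (-0.35 ± 0.08, 0.0253), and none of the SMADs and adaptors was called.

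Between groups in microglia, few genes of these lists were past 1.5-fold, and few of all genes were. In Ncr1-cre polyIC over Ncr1-cre saline, 5.69% of all genes were past it. Past it were 2 of 16 genes of the inhibitor list, 2 of 10 targets and 1 of 6 ligand and activation genes. The genes counted had a mean of at least 10 CPM, and Skil is in the first 2 lists. The inhibitors Ldlrad4 (ratio 1.73, 1.55 to 1.92) and Skil (1.61, 1.53 to 1.70), the target Junb (1.80, 1.75 to 1.85) and the activator Thbs1 (1.54, 1.38 to 1.73) were higher. No gene of the inhibitor, target, ligand, receptor or SMAD lists was past 1.5-fold lower. Skil is the close relative of Ski. Of the 18 microglial genes, 3 were past 1.5-fold higher, Rhob and Pros1 among them, and the median log2 ratio was 0.40, against 0.17 over all genes.

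In Gzmb-cko polyIC over Ncr1-cre polyIC microglia, Thbs1 was the only gene of the 6 lists past 1.5-fold, and 2.02% of all genes were past it, so the count itself is not a result about the lists. Thbs1 was 14.1 CPM against 29.4 CPM, 2.09-fold lower (1.86 to 2.35). Junb, by contrast, was 534 CPM in the Gzmb-cko polyIC library and 530.2 CPM in the Ncr1-cre polyIC library, both above the 295 CPM of the Ncr1-cre saline library. In border macrophages Bmp2 was 25.1 CPM (Gzmb-cko polyIC), 36.6 CPM (Ncr1-cre polyIC) and 12.9 CPM (Ncr1-cre saline), with a ratio of 2.85 (2.23 to 3.65) in Ncr1-cre polyIC over Ncr1-cre saline.

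Over the 12 sums of 4 classes and 3 libraries, and among 7007 genes with at least 20 CPM in 3 or more sums, the genes most alike to each component were found by Pearson correlation of log2(CPM + 1). The sums share libraries and classes, so the values are a description. Tgfb1 was most like Spi1, the gene of PU.1, and Tyrobp (r = 0.995 for both), Tgfbr1 like Rhoh (0.991) and Lair1 (0.990), Tgfbr2 like Ntpcr (0.990) and Adrb1 (0.989), and Ski was much like Bin1 (0.988). Smad7 was most like Nckap5l (0.985) and Tmem199 (0.979), and Smad4 like Kmt2e (0.961) and Usp47 (0.958). For Smad2 the values were lower, with Arrdc3 at 0.907 and Ensa at 0.897, and for Smad3 lowest, with Tbc1d15 at 0.789 and Clk2 at 0.787, in a gene counted at 10.4 to 17.1 CPM in all 4 classes.

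The loci are given on GRCm38 with GENCODE vM21 gene bounds. Tgfb1 spans chr7:25687002-25705077 on the plus strand, Tgfbr1 chr4:47353222-47414931 (plus), Ski chr4:155154075-155222592 (minus), Tgfbr2 chr9:116084293-116175360 (minus) and Smad3 chr9:63646767-63757994 (minus). Smad4, Smad7 and Smad2 all lie on chromosome 18, at chr18:73639009-73703780 (minus), chr18:75367529-75395935 (plus) and chr18:76241580-76310963 (plus). No annotated gene overlaps any of the 8 on the same strand, and 1 gene overlaps Smad4 on the opposite strand.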

How the data were processed

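The authors deposited raw UMI counts per gene and barcode, with no normalization. The tables came from Cell Ranger 5.0.0 per the file headers. STAR, mm10 and another Cell Ranger version, 3.0.1, appear in the submitters' processing notes, and barcode calling is not described in the labels. A count covers reads assigned to 1 gene, and GRCm38 gene models (99.0% of IDs matched) show no same-strand overlap for the 8 genes. UMIs were summed over cells of a class and library and scaled to CPM by the class sum, with exact Poisson, conditional binomial (ratios) or Clopper-Pearson (shares) intervals at 95%, for counting error only. Class contrasts used edgeR 4.0.16 (R 4.3.3), filterByExpr, TMM and the library as a block, on 12 sums that share 1 estimate of the spread. The block follows the design, since the class sums of a library come from the same cell suspension. The standard error is the log2 fold change over the square root of F. The script was tested on simulated data for microglia over border macrophages. At the spread set there it recovered 57.9% of genes changed 1.5-fold and 96.3% of those changed 2-fold. Of the genes called, 2.75% and 5.18% were false. That spread was a set value, not one fitted to the 8 genes. A gene not called in that contrast may thus still differ by about 1.5-fold, or by more where its spread is larger. Tgfbr1, at 1.66-fold, was not called there. DESeq2 1.42.0, cell filters (1000 genes and 5%, 200 genes and 20% mitochondrial UMIs), the class rules with cells of several rules kept, a floor of 3133 UMIs and doublets called by Scrublet (scanpy 1.11.5, 2.61 to 4.66% of cells, otherwise kept) were alternatives. All 8 genes were named, and of each list at most 3 genes per contrast, by size among those past the threshold. The genes and lists were chosen with earlier results of these data known. The contrasts of border macrophages and of monocytes over neural cells, and the restriction of neural cells, were added after the data were seen. The p-values measure the spread between libraries of different groups, and the labels do not state whether a library held 1 litter or several. A few genes among the markers and the most alike genes are not reported here.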

Additional observations from a re-analysis of the deposited data

Results flagged for a closer look

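Ratios between libraries lay on opposite sides of 1 in different classes for 3 genes, with counting intervals that exclude 1 and at least 1 ratio past 1.5-fold. For Gzmb-cko polyIC over Ncr1-cre polyIC, Tgfbr1 had a ratio of 0.808 in microglia and 0.804 in border macrophages, and of 1.42 in monocytes and 1.78 in neural cells. Tgfbr2 had 0.948 in microglia, 1.39 in monocytes and 2.36 in neural cells. In Ncr1-cre polyIC over Ncr1-cre saline, Tgfbr1 had 1.35 in microglia, 1.24 in border macrophages, 0.659 in monocytes and 0.581 in neural cells. Tgfbr2 had 1.28 in microglia, 1.35 in border macrophages and 0.660 in neural cells, and Tgfb1 had 1.14 in microglia and 0.434 in neural cells. The differences between classes were not tested, since each group has 1 library. Markers of microglia summed to 1879, 1098 and 2503 CPM in monocytes and to 5300, 2452 and 4244 CPM in neural cells (Gzmb-cko polyIC, Ncr1-cre polyIC and Ncr1-cre saline), lowest in the same library as the receptors, and their part in these ratios was not tested.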

How the results depend on the processing

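Of the alternative values for the log2 fold changes of the 8 genes between classes, 645 kept their direction and side of the threshold, 42 lost the call, 13 gained one and 20 changed sign. Genes called in microglia over border macrophages were 1085, and 1822 with DESeq2, 603 with no replicate block, 1923 with restricted neural cells and 269 to 1313 when 1 library was left out. Of the 8 genes 1 was called there, and 2 with DESeq2, no low-count filter, the class rules as written, stricter cells or restricted neural cells, and 0 to 2 when 1 library was left out. Of the 8, 5 were called in monocytes over neural cells, with 3 under library totals and 2 to 5 when 1 library was left out. In cycling over non-cycling microglia 5330 genes were called, with 3325 under DESeq2 and 1972 with no replicate block, where 1 of the 8 genes was called in place of 5. Over all classes, 3 pairs of a gene and a class were past 1.5-fold in Gzmb-cko polyIC over Ncr1-cre polyIC, and 5 with the mean of per-cell CPM or stricter cells. Gzmb-cko polyIC over Ncr1-cre saline had 2, and 1 with the mean of per-cell CPM.

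The sign of log2 fold changes turned as follows, and the cause was not tested. With library totals it was 0.15 for Smad3 in microglia over monocytes, 0.016 for Smad3 in border macrophages over monocytes, -0.11 and -0.14 for Smad2 in microglia and in border macrophages over neural cells, and -0.24, -0.060 and -0.19 for Tgfbr1, Tgfbr2 and Smad4 in monocytes over neural cells. Smad2 in microglia and in border macrophages over neural cells was -0.047 and -0.10 with DESeq2, -0.016 and -0.14 with stricter cells, -0.046 and -0.076 with restricted neural cells, and -0.017 to 0.26 and -0.022 to 0.18 when 1 library was left out. Tgfb1 in microglia over border macrophages was 0.010 with stricter cells, and Tgfbr1 in monocytes over neural cells -0.047 with the class rules as written. With restricted neural cells, Smad7 and Ski in monocytes over neural cells were 0.073 and 0.25, and the ratios in neural cells were 0.766 for Tgfbr1 in Gzmb-cko polyIC over Ncr1-cre polyIC and 0.782 for Tgfbr2 in Gzmb-cko polyIC over Ncr1-cre saline. With 1 library per group no alternative stands in for a replicate.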
